A study of Mus musculus with 16 samples.

Results

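The comparison described here sets whole livers of mice labelled TRAF2/Casp-8LPC-KO against livers labelled WT, over all measured genes. It uses 8 of the 16 arrays of the series, 4 for each genotype, chosen by their titles alone. All 8 mice were males aged 7 days on a mixed C57/BL6 - SV129Ola background, and each array held the RNA of 1 liver. The mice labelled TRAF2/Casp-8LPC-KO (called KO from here on) carried loxP-flanked alleles of Traf2 and of caspase-8 and the alfp-Cre transgene, which acts in liver parenchymal cells. The WT mice were littermates that carried floxed alleles and no Cre, so the groups differed in the Cre transgene as well as in the deleted genes. The deletion is labelled as specific to these cells. The values are log2 signals, on which a difference of 1 is a doubling, and adjusted p-values are from limma with Benjamini-Hochberg adjustment over all 35556 probe sets.

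TRAF2 is an adaptor that joins TNF receptors to the ubiquitin ligases cIAP1 and cIAP2. With TRAF3 it also keeps the kinase NIK, the product of Map3k14, under constant degradation. When NIK is spared, the p100 protein made by Nfkb2 is processed to p52, which enters the nucleus with RelB, the so-called non-canonical NF-κB pathway. The canonical pathway runs through the IKK kinases, the IκB inhibitors and RelA, and it induces its own inhibitors. Caspase-8 starts death-receptor apoptosis and cleaves the kinases of necroptosis, a lytic form of cell death that runs through RIPK3 and MLKL. In liver, parenchymal cells are the hepatocytes and the cells lining the bile ducts.

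Arrays correlated at 0.981 to 0.990 within WT, 0.988 to 0.991 within KO and 0.980 to 0.986 between the groups. WT replicate 1 stood apart from the other WT arrays. Its array weight was the lowest of the 16 (0.461), and its mean signal over 20 neutrophil and myeloid precursor markers was 8.91 against 7.33 to 7.70 on the other WT arrays. WT replicate 2 was high in erythroid markers (7.78 against 6.91 to 6.95). The array names place the WT arrays in rows A to D of a plate and the KO arrays in rows E to H of another column, and KO replicate 4 alone carries another name prefix, so plate position and genotype cannot be told apart. In whole liver, fewer cells of a type and less RNA per cell also cannot be told apart.

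The targeted genes were read first. Casp8 signal was 9.80, 9.76, 9.84 and 10.07 on the WT arrays and 8.85, 8.95, 8.98 and 9.03 on the KO arrays. All 4 KO arrays lay below all WT arrays, and Casp8 fell by 0.91 on the log2 scale (SE 0.11, adjusted p = 0.000323). Traf2 signal went against the label. It was 6.21, 6.23, 6.40 and 6.28 in WT and 7.44, 7.38, 7.31 and 7.07 on the arrays labelled TRAF2/Casp-8LPC-KO, a rise of 2.03-fold (adjusted p = 2.14e-05). Whether its probes lie inside the deleted part of Traf2 is not given in the sources used here. Each direction below is therefore that of the arrays labelled TRAF2/Casp-8LPC-KO.

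Of 18820 genes, 623 passed (3.31%), of which 408 rose (2.17%) and 215 fell (1.14%). In the KO livers 111 genes (0.590%) rose and 34 (0.181%) fell by 2-fold or more. Genes that rose changed by a median of 1.69-fold and genes that fell by a median of 1.52-fold. Signals of the groups did not overlap for 2175 genes (11.6%). Over all genes the median difference was -0.01, and 8895 of the 18820 genes lay above 0. Lists of genes are read against these values and against the shares above. The lists were written with earlier results of these data known, so their counts and shares describe and test nothing. No share of all genes is given for the unadjusted p. Counts of list members by unadjusted p, given below, thus have no background and are not read as changes of a list. Of the probe sets, 800 passed (2.25%), 513 higher (1.44%) and 287 lower (0.807%), and this count moved with the arrays used. It was 420 without KO replicate 1, 443 without KO replicate 4, 468 without WT replicate 3, 509 without WT replicate 2 and 518 without WT replicate 4.

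**Figure D1:**
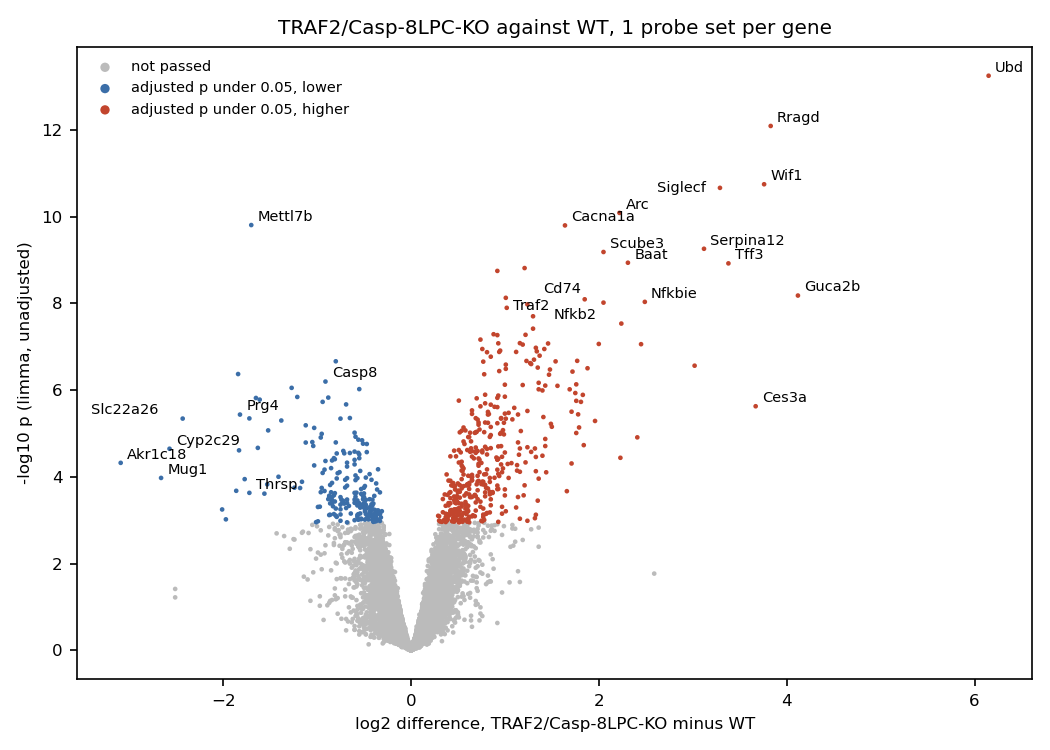
Log2 difference of KO minus WT (x axis) against -log10 of limma's unadjusted p (y axis) for 18820 genes, 1 probe set per gene. Red points are the 408 genes that rose and blue points the 215 that fell. Ubd lies alone at the upper right (log2 6.15), and the fall of Mettl7b (3.24-fold) stands above the other falls in p.

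Genes of the NF-κB pathways rose together in the KO livers. Of 13 measured non-canonical pathway genes, 7 rose and 0 fell, with a median difference of 1.11. Of 25 subunits, inhibitors and kinases of NF-κB, 8 rose and 0 fell, with a median of 0.33. The lists share 3 genes, all of which rose. The mean signal of the non-canonical list was 5.47 to 5.94 in WT and 6.42 to 6.86 in KO, without overlap. The second list lay at 6.64 to 6.95 in WT and 7.22 to 7.44 in KO. WT replicate 1 was the highest WT array in both.

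Among the subunits, Nfkb2 signal was 6.75, 5.92, 6.07 and 5.94 in WT and 8.31, 8.29, 7.91 and 8.34 in KO. WT replicate 1 was again nearest to the KO arrays, and Nfkb2 rose 4.13-fold (log2 2.05, SE 0.18, adjusted p = 1.8e-05). Relb, the partner of p52, was 6.01, 5.01, 5.21 and 5.12 in WT and 7.14, 7.31, 6.54 and 7.21 in KO, and rose 3.27-fold. Map3k14, which encodes NIK, read 4.85 to 5.31 in WT and 5.42 to 5.69 in KO (log2 0.54, adjusted p = 0.0306).

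Inhibitors of the pathway rose as well. Nfkbie, which encodes IκBε, was 6.12, 5.32, 5.39 and 5.10 in WT and 8.09, 7.94, 7.67 and 8.17 in KO. The groups lay far apart, and the rise was 5.61-fold (log2 2.49, SE 0.22, adjusted p = 1.8e-05). Tnfaip3, which encodes the ubiquitin-editing inhibitor A20, was 5.93, 5.20, 4.95 and 4.96 in WT and 7.33, 7.00, 6.58 and 7.16 in KO, a rise of 3.38-fold. Its partner Tnip1 rose 2.21-fold. Nfkbia, which encodes IκBα, rose 2.23-fold with an adjusted p of 0.0457. Ikbke, a kinase related to the IKKs, rose 1.90-fold.

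TRAF and TNF receptor complex genes moved unevenly. Of 17 measured, 4 rose, 0 fell and the median difference was 0.11. Besides Traf2 and Tnfaip3 these were Birc2 and Birc3, which encode cIAP1 and cIAP2. Birc2 was 6.99, 6.73, 6.57 and 6.54 in WT and 7.84, 7.66, 7.92 and 7.88 in KO (2.17-fold, adjusted p = 0.000108). Birc3 was 6.84, 6.27, 6.14 and 6.15 in WT and 8.23, 7.90, 7.68 and 8.35 in KO (3.22-fold, adjusted p = 0.000427). Traf1, a TRAF family member, read 3.62 in WT and 3.73 in KO on average (log2 0.11, adjusted p = 0.752). Of 27 TNF receptor genes, 0 passed in limma's test and 7 had an unadjusted p under 0.05. Cd40 came nearest, at 4.85 to 5.08 in WT and 5.21 to 5.60 in KO (log2 0.41, adjusted p = 0.0775). The count of the NF-κB subunit list was 5 without WT replicate 2, 3 or 4 or KO replicate 4. Map3k14 lost its call without any array but WT replicate 1 and KO replicate 2 (adjusted p up to 0.106). Nfkbia lost it without any array but WT replicate 1 and KO replicate 3 (up to 0.139). Ikbke lost it without WT replicate 2, 3 or 4 or KO replicate 4 (up to 0.0648).

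The promoters of several of these genes hold a κB-type sequence, the kind of site that NF-κB dimers bind. The pattern GGG, then any 2 bases, then TTTCC was searched on both strands of the RefSeq GRCm38.p6 promoters, from 250 bases before to 50 bases after each gene start. It was found in 25 of 319 genes that rose and have a promoter in the table (7.84%) and in 15 of the 91 that rose by 2-fold or more (16.5%). The share was 3 of 166 among genes that fell (1.81%), 246 of 14264 among genes that did not pass (1.72%) and 535 of 32851 over all promoters (1.63%). The pattern was picked after 5 had been tried. A looser pattern, GGGA, then any 4 bases, then CC, was found in 33.9% of genes that rose, 33.1% of those that fell and 26.6% of those that did not pass. A pair of these genes, Tmem176a and Tmem176b, share 1 promoter region, as do Rabgap1 and Zbtb26, and the windows of Rsl1, Zfp429 and Zfp456 are near copies of each other. A match describes letters and is not a measured binding site. The windows below are examples of matches in genes that rose, chosen after their values were seen. They come from genes of the NF-κB lists (Nfkb2, Nfkbia, Tnfaip3, Ltb and Madcam1) and of other lists (Ubd, Ccl20 and Elf3). The promoters of Nfkbie and Birc3 in the table hold no match, which says only that these letters are not in that window. Each window is printed 5′ to 3′ on the gene's strand, with 1 match in capitals. The Madcam1 window holds another match, 70 bases before the gene start, which is left in lower case.
Ubd, chr17:37193832-37193891, plus strand: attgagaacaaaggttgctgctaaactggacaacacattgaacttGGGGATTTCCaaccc
Nfkb2, chr19:46304677-46304736, plus strand: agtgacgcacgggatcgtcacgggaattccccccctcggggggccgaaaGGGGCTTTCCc
Nfkbia, chr12:55492648-55492707, minus strand: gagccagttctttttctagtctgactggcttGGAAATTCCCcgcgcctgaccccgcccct
Tnfaip3, chr10:19015411-19015470, minus strand: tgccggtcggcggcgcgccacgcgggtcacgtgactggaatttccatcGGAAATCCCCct
Ltb, chr17:35194395-35194454, plus strand: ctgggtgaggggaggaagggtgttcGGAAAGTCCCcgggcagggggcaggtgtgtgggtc
Madcam1, chr10:79664451-79664510, plus strand: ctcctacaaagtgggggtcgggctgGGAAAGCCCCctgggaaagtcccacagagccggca
Ccl20, chr1:83116661-83116720, plus strand: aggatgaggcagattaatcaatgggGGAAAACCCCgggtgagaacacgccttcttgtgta
Elf3, chr1:135258546-135258605, minus strand: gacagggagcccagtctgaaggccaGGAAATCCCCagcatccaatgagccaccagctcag

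Cytokine, chemokine and adhesion genes rose for a small number of members in each family. Ubd, a ubiquitin-like modifier, was 4.49, 4.09, 4.06 and 4.02 in WT and 10.39, 10.29, 10.31 and 10.25 in KO. The KO arrays lay close together, and the rise was 70.9-fold (log2 6.15, SE 0.23, adjusted p = 2.02e-09). Ubd stands in a list of 29 proteasome and ubiquitin genes of which it was the only one to pass, and the median of that list was 0.00. Of 16 TNF superfamily ligands, Ltb alone rose. Ltb encodes lymphotoxin β, a ligand of the receptor that feeds the non-canonical pathway. It was 6.40, 5.34, 5.86 and 5.14 in WT and 8.23, 7.70, 7.94 and 8.67 in KO (5.47-fold), while its receptor gene Ltbr read 7.98 in WT and 7.74 in KO on average (log2 -0.24, adjusted p = 0.155).

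Of 18 CC chemokines, 4 rose and 0 fell. Ccl2, a chemokine for monocytes, was 4.87, 4.41, 4.52 and 4.62 in WT and 6.40, 5.79, 5.56 and 6.28 in KO (2.64-fold, adjusted p = 0.000446). Ccl20, a chemokine for CCR6-bearing cells, rose 3.99-fold, with KO arrays between 5.40 and 6.83 and WT arrays between 4.02 and 4.27. Ccl9 rose 2.02-fold. Ccl17 rose 1.64-fold from a low WT mean of 3.14, so its fold may include background. Ccl3, Ccl4 and Ccl5 did not pass (log2 0.29, 0.15 and -0.09). Of 16 CXC and CX3C chemokines, Cxcl10 and Cx3cl1 rose. Cxcl10, a chemokine for activated T cells, was 7.58, 6.92, 6.69 and 7.15 in WT and 10.01, 9.98, 9.78 and 10.65 in KO. Cxcl9 and Cxcl11, which bind the same receptor as Cxcl10, did not pass (log2 0.14 and -0.16). Cx3cl1, the membrane-bound chemokine fractalkine, was 4.74, 4.44, 4.30 and 4.59 in WT and 5.61, 5.91, 5.74 and 5.95 in KO (2.43-fold). Ccl17 lost its call without KO replicate 1 or 4 (adjusted p up to 0.0532).

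Of 17 adhesion molecule genes, 3 rose. Icam1, which binds leukocyte integrins, was 7.71, 6.93, 7.34 and 7.13 in WT and 8.62, 8.32, 8.21 and 8.67 in KO (2.26-fold, adjusted p = 0.00198). Madcam1, an adhesion molecule of gut vessels, rose 3.88-fold from a WT mean of 3.19, and Alcam rose 1.73-fold. Of 37 interleukin and interleukin receptor genes, 2 rose and 2 fell. Il1rn, the antagonist of the IL-1 receptor, was 6.60, 5.63, 5.31 and 4.79 in WT and 7.39, 7.08, 7.42 and 7.79 in KO (3.58-fold). Il22ra1, the receptor chain through which parenchymal cells sense IL-22, was 6.51, 7.23, 7.17 and 6.80 in WT and 4.82, 5.41, 5.30 and 5.31 in KO, and fell by 1.72 on the log2 scale (adjusted p = 0.00125). The other pair, Il23a (log2 0.78) and Il13ra1 (-0.44), lost their calls without any of 6 and 7 arrays (adjusted p up to 0.115 and 0.109). Il23a kept it only without KO replicate 1 or 4, and Il13ra1 only without KO replicate 3.

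Antigen presentation genes rose in part, and interferon-stimulated genes did not follow. Of 19 MHC class I and immunoproteasome genes, 4 rose, and 9 of the 19 had KO signals above all WT signals (6.12% of all genes did). Tapbp, which loads peptides on class I, was 9.13, 8.79, 8.74 and 8.85 in WT and 9.64, 9.54, 9.45 and 9.62 in KO (1.61-fold), and the immunoproteasome subunit Psmb10 rose 1.43-fold. Of 11 class II genes, Cd74 alone passed. Cd74, the invariant chain, was 8.62, 7.85, 8.39 and 8.11 in WT and 10.08, 9.99, 9.91 and 10.37 in KO (3.60-fold, adjusted p = 1.69e-05). H2-Ab1, H2-Aa and H2-Eb1, which encode the class II chains themselves, differed by 0.62, 0.63 and 0.64 (adjusted p = 0.0513, 0.0756 and 0.102). Their transactivator Ciita differed by 0.38 (adjusted p = 0.242). Of 30 interferon-stimulated genes, 1 rose, Ddx58 (1.54-fold), and the median was -0.11. Without WT replicate 1, 2 class II genes passed, and without KO replicate 2, 3 did. The class I count was 2 without WT replicate 2, 3 or 4 or KO replicate 1, 3 or 4, since Tapbpl (log2 0.42) and H2-K1 (0.38) then lost their calls. Ddx58 lost its call without WT replicate 2 or KO replicate 1 or 3 (adjusted p up to 0.0584).

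**Figure D2:**
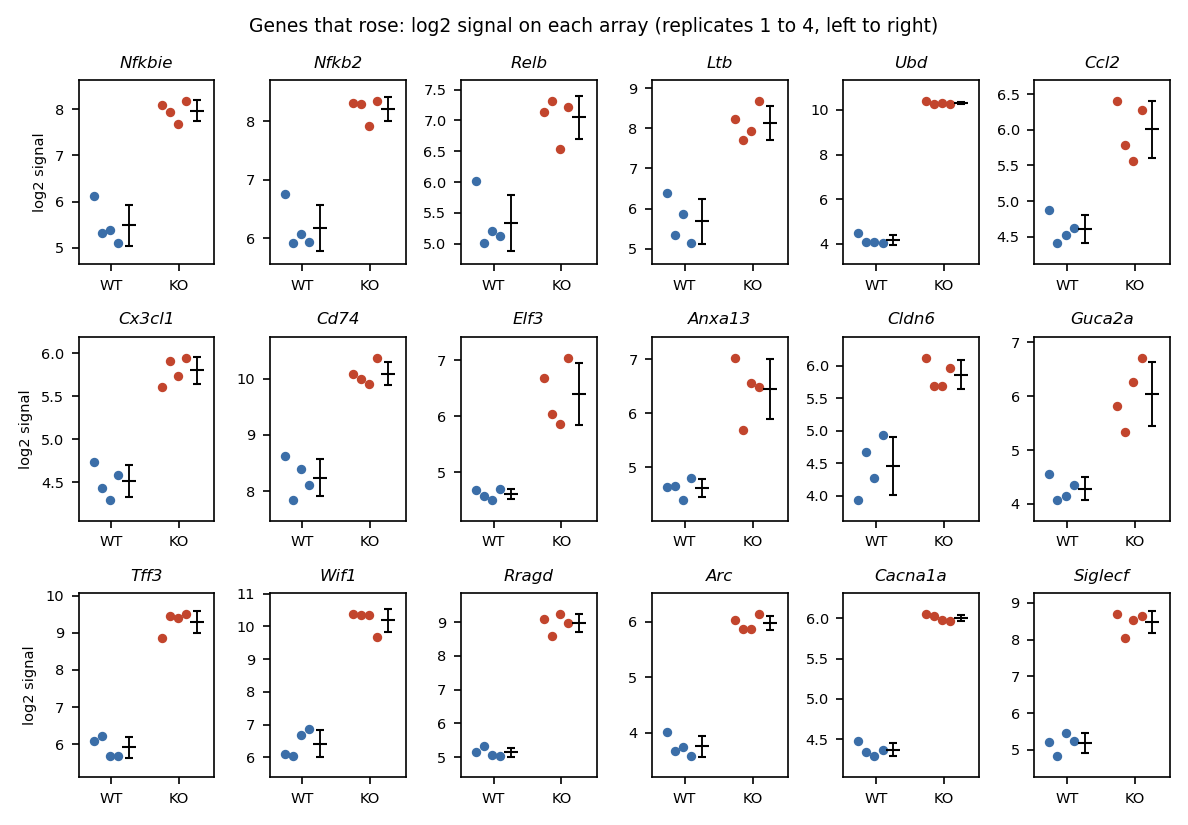
Log2 signal (y axis) of 18 genes that rose, on each of the 4 WT (blue) and 4 KO (red) arrays, replicates 1 to 4 from left to right within a group. Black bars are the mean and SD of 4 arrays, and each panel has its own y axis. KO arrays lie above WT arrays in every panel, and in most NF-κB panels WT replicate 1 is the highest WT array.

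Of 22 caspase and death complex genes, Casp8 alone passed. At an unadjusted p under 0.05 there were 10 of the 22, 7 higher and 3 lower, and the median was 0.01. The share of all genes under that p is not given, so whether 10 of 22 is unusual was not tested. Ripk3, the necroptosis kinase, read 5.93 in WT and 5.84 in KO on average (log2 -0.10, adjusted p = 0.873), and Mlkl, its effector, read 6.97 and 7.37 (log2 0.41, adjusted p = 0.294). Cflar, which encodes the caspase-8 partner cFLIP, differed by 0.30 (adjusted p = 0.219) and Fadd by -0.01. Of 17 BCL-2 family genes, Bok rose (log2 0.61). Stress programmes gave few calls as well. None of 23 p53 targets passed in limma's test (8 had an unadjusted p under 0.05), nor did any of 23 unfolded protein response genes (5 did), and their medians were 0.09 and -0.03. The same held for 14 heat shock protein genes (2 under an unadjusted p of 0.05). Of 24 NRF2 and oxidative stress genes, Gclc fell (log2 -0.60). Bok lost its call without WT replicate 2, 3 or 4 or KO replicate 1 or 4 (adjusted p up to 0.109). Gclc lost it without WT replicate 3 or 4 or KO replicate 1 or 4 (up to 0.0877).

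Growth and developmental pathways gave scattered calls. Ccn1, a YAP target of the matrix, was 6.38, 6.64, 6.97 and 7.13 in WT and 7.99, 7.50, 8.16 and 8.00 in KO (2.19-fold, adjusted p = 0.0085). Of the 24 genes of its list, 20 lay above 0, beside 8895 of all 18820 genes. Ccn2, a second YAP target, rose 1.74-fold, and lost its call without any array but WT replicate 1 (adjusted p up to 0.124). Wif1, a secreted inhibitor of Wnt ligands, was 6.12, 6.04, 6.67 and 6.87 in WT and 10.37, 10.35, 10.35 and 9.67 in KO. It was the only 1 of 28 Wnt-related genes to rise, and the list's median was -0.11. Slc13a3, a dicarboxylate transporter of that list, fell by 0.85 (adjusted p = 0.00772). Notch2, a receptor needed for bile duct formation, was 9.04, 9.13, 9.13 and 9.12 in WT and 9.63, 9.62, 9.57 and 9.62 in KO (1.42-fold). Maff, a small MAF factor and the only 1 of 18 AP-1 genes to pass, was 4.16, 3.41, 3.44 and 3.54 in WT and 4.75, 4.92, 4.15 and 4.85 in KO (2.04-fold), so that WT replicate 1 and KO replicate 3 overlapped. Myc and Klf6, growth-related immediate early genes, rose by 0.77 and 0.50, and both lost their calls without WT replicate 2, 3 or 4 or KO replicate 1 or 4 (adjusted p up to 0.129 and 0.132), Myc also without KO replicate 2 or 3. Rragd, a Rag GTPase that helps bring mTORC1 to the lysosome, was 5.16, 5.32, 5.06 and 5.03 in WT and 9.10, 8.59, 9.23 and 8.98 in KO (14.2-fold). It was the only 1 of 29 Rag, folliculin and TFEB-related genes to pass, and their median was -0.02. Of 44 cell cycle genes, 0 rose and 2 fell, Cdkn1c (log2 -0.92) and Ccnd1 (-0.54), and Mki67, a marker of dividing cells, differed by 0.09 (adjusted p = 0.920). Cdkn1c lost its call without WT replicate 2, 3 or 4 or KO replicate 1 or 4 (adjusted p up to 0.0648). Ccnd1 lost it without those arrays or KO replicate 2 (up to 0.0984).

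Genes of bile duct epithelium and progenitor cells rose in number. Of 23 measured, 10 rose and 0 fell, with a median of 0.50. The 12 cholangiocyte markers are all among these genes, and 6 of them rose, with a median of 0.63. Sox9, the transcription factor of the biliary lineage, was 5.80, 5.18, 5.73 and 5.51 in WT and 7.12, 6.66, 7.07 and 6.63 in KO (2.48-fold, adjusted p = 0.000147). Bicc1, an RNA-binding protein of duct and tubule epithelia, was 7.68, 7.86, 7.80 and 7.90 in WT and 9.27, 8.79, 8.96 and 9.10 in KO (2.33-fold). Anxa13, an annexin of the apical membrane, was 4.63, 4.65, 4.40 and 4.80 in WT and 7.03, 5.69, 6.57 and 6.49 in KO (3.55-fold). All 3 genes were higher on every KO array.

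Elf3, an epithelial transcription factor, was 4.68, 4.57, 4.51 and 4.70 in WT and 6.68, 6.03, 5.86 and 7.04 in KO (3.45-fold). The duct genes Pkhd1, Cdh1 and Epcam rose 1.63-fold, 1.57-fold and 1.73-fold. Not all duct markers took part. Krt19 and Krt7, the keratins used to stain bile ducts, differed by -0.19 and 0.18 (adjusted p = 0.881 and 0.698), and 0 of 14 genes of the keratin list passed in limma's test, 4 of them with an unadjusted p under 0.05. The mean signal of the 12 cholangiocyte markers was 5.43 to 5.82 in WT and 6.07 to 6.32 in KO, without overlap. Epcam and St14 lost their calls without WT replicate 3 or KO replicate 1 (adjusted p up to 0.0631 and 0.0717).

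Tight junction genes rose alongside. Of 21 measured, 5 rose and 0 fell. Cldn7 and Cldn4, claudins of duct and gut epithelium, rose 2.55-fold and 3.40-fold. Cldn6, a claudin of embryonic epithelia, was 3.94, 4.67, 4.28 and 4.94 in WT and 6.12, 5.68, 5.68 and 5.97 in KO (2.64-fold, adjusted p = 0.00479). Marveld2, which seals junctions where 3 cells meet, rose 1.76-fold and F11r rose 1.54-fold. The list's count was 8 without KO replicate 2. The primary transcripts of the miR-200 cluster on chromosome 4, which in epithelia restrain the repressors Zeb1 and Zeb2, were looked at after their values had been seen. The probe set of Mir200b was 3.06, 3.75, 3.39 and 3.70 in WT and 4.40, 4.30, 4.54 and 4.62 in KO (log2 0.99, adjusted p = 0.00219). That of Mir200a rose by 0.54 on the log2 scale from a WT mean of 3.97. These are low signals not shown to be above background, so no fold is given. Mir200c and Mir141, of the same family, read 3.46 and 3.45 in WT and did not pass (log2 0.09 and 0.00). Zeb1 and Zeb2 did not pass. The mature strands are given with their seeds, bases 2 to 8, in capitals, which are not the same (RefSeq, GRCm38.p6, minus strand of chromosome 4).
miR-200b-3p: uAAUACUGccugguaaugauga
miR-200a-3p: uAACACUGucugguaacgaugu

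Intestinal-type and fetal or tumour-associated genes gave a few large changes. Of 25 intestinal-type genes 4 rose, and the list's median was -0.02. Guca2b and Guca2a encode uroguanylin and guanylin, peptides that act on guanylate cyclase C in gut epithelium. Guca2b was 4.57, 4.74, 4.87 and 4.39 in WT and 8.61, 8.04, 8.72 and 9.67 in KO, and Guca2a was 4.55, 4.08, 4.14 and 4.35 in WT and 5.82, 5.33, 6.27 and 6.71 in KO (3.37-fold). KO replicate 4 was the highest array for both. Tff3, a trefoil peptide of mucous epithelia, was 6.10, 6.23, 5.69 and 5.68 in WT and 8.86, 9.45, 9.40 and 9.50 in KO. Vil1, which bundles actin in microvilli, rose 1.98-fold from a low WT mean of 3.56, so its fold may include background. Of 27 fetal liver and liver cancer genes, 3 rose and 1 fell, 20 lay above 0 and the median was 0.22. Their mean signal was 7.48 to 7.66 in WT and 7.75 to 8.11 in KO, without overlap. Sprr1a, a cornified envelope protein, rose 5.33-fold and Bex1 4.69-fold beside Tff3. The markers Afp and Gpc3 read 12.59 and 10.45 in WT and differed by 0.17 and 0.34 (adjusted p = 0.671 and 0.0787). Of 36 matrix and fibrosis genes, 3 rose, led by Col6a3 (1.73-fold, adjusted p = 0.00144). The matrix count was 1 without WT replicate 3 or KO replicate 1 or 4.

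Of 33 cytochrome P450 genes of family 2, 0 rose and 2 fell, with 7 of the 33 above 0 and a median of -0.26. Cyp2c29, an oxidase of drugs and fatty acids, was 9.08, 8.42, 8.68 and 8.03 in WT and 6.64, 6.14, 6.28 and 4.87 in KO. Cyp2b10, the classical target of the receptor CAR, was 6.52, 6.20, 6.42 and 6.02 in WT and 4.26, 4.87, 4.38 and 4.30 in KO. Cyp2e1, an oxidase of ethanol and small solvents, read 12.85 in WT and differed by -0.38 (adjusted p = 0.114). Of 15 genes of families 3 and 4, Cyp4f14 fell by 1.53 (adjusted p = 0.0142). Of 21 organic ion transporters, 3 fell and 1 rose. Slco2b1, an uptake carrier for organic anions, was 5.64, 5.0, 5.42 and 5.86 in WT and 4.18, 4.01, 4.39 and 3.82 in KO (2.60-fold lower, adjusted p = 0.00134). Slc22a7, an anion carrier of the sinusoidal membrane, was 8.61, 8.15, 8.21 and 8.37 in WT and 6.89, 7.01, 6.45 and 5.66 in KO (3.56-fold lower). KO replicate 4 was the lowest array for Cyp2c29, Slco2b1 and Slc22a7. Slco2a1, a prostaglandin carrier, rose 1.56-fold, and lost its call without WT replicate 2 or KO replicate 1 or 3 (adjusted p up to 0.0687). Cyp4f14 lost its call without WT replicate 3 or 4 or KO replicate 4 (adjusted p up to 0.0551).

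Conjugating enzymes gave 2 calls. Of 35 glutathione, glucuronosyl and sulfotransferases, Mgst2 rose and Sult1c2 fell, shares near those of all genes. Mgst2, a microsomal glutathione transferase, was 5.64, 5.53, 5.39 and 5.05 in WT and 6.82, 6.72, 6.85 and 6.66 in KO (2.57-fold, adjusted p = 0.000427). Of 25 aldo-keto reductases and hydroxysteroid dehydrogenases, 5 fell and 1 rose. Akr1c18, which inactivates progesterone, was 9.54, 10.02, 10.74 and 10.72 in WT and 6.33, 9.17, 5.81 and 7.35 in KO, so that KO replicate 2 lay well above the other KO arrays. Hsd17b6 fell by 1.41 (adjusted p = 0.0107). The count of falls was 2 or 3 without WT replicate 2, 3 or 4 or KO replicate 1 or 4. Sult1c2 (log2 -0.88) lost its call without WT replicate 2, 3 or 4 or KO replicate 2 or 4 (adjusted p up to 0.0869).

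Amino acid breakdown and the urea cycle gave 42 measured genes, of which 0 rose and 7 fell, with a median of -0.28. In 14 of the 42, KO arrays lay below all WT arrays (5.44% of all genes did). Ahcy, which clears the methylation by-product S-adenosylhomocysteine, was 11.04, 11.20, 11.19 and 11.06 in WT and 10.65, 10.70, 10.66 and 10.58 in KO, and fell by 0.47 (SE 0.08, adjusted p = 0.0032). The histidine-degrading enzymes Hal and Uroc1 fell by 1.56 and 0.69, and the tyrosine enzyme Hpd fell by 0.68. The urea cycle genes Cps1, Otc and Asl did not pass (log2 -0.16, -0.18 and -0.03). The count depended on the arrays. It was 1 without WT replicate 2, 3 or 4 or KO replicate 4, 2 without KO replicate 1 and 4 without KO replicate 2, and Ahcy was the only one of the 7 to keep its call with each array left out. Hal reached an adjusted p of 0.072, Hpd 0.0845 and Uroc1 0.112.

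The calls among energy and lipid genes were all falls, beside 1.14% of all genes that fell. None of 39 tricarboxylic acid cycle and respiratory chain genes passed in limma's test, and 12 had an unadjusted p under 0.05. Of the 39, 3 lay above 0, and the median was -0.15. None of 32 fatty acid oxidation and ketogenesis genes passed either (9 under an unadjusted p of 0.05), with a median of -0.17. Nor did any of 33 genes in the glycolysis, gluconeogenesis and glycogen list (5 under that p). Pigq, which belongs to none of these pathways, is counted in that list. Of 31 fatty acid and triglyceride synthesis genes, 2 fell. Srebf1, which encodes the master factor of lipogenesis SREBP1, was 8.37, 8.87, 9.17 and 9.23 in WT and 7.62, 8.21, 7.89 and 7.80 in KO (2.04-fold lower, adjusted p = 0.00691). Thrsp, a lipogenic target of thyroid hormone, was 4.98, 5.83, 5.57 and 5.65 in WT and 3.89, 3.68, 4.05 and 3.53 in KO. Of 24 genes of apolipoproteins and lipoprotein handling, 3 fell and 4 lay above 0. Apoc3, which slows the clearance of triglyceride, was 10.86, 11.02, 11.21 and 10.83 in WT and 9.77 ± 0.25 in KO (mean and SD, n = 4). Every KO array lay below every WT array (2.31-fold lower in limma, adjusted p = 0.000574). Lrp1 fell by 0.35 and Apol7a by 0.99. The lipogenic count was 1 without WT replicate 2, 3 or 4 or KO replicate 1 or 4 and 5 without WT replicate 1. Thrsp lost its call without WT replicate 2, 3 or 4 or KO replicate 1 or 4 (adjusted p up to 0.068), and Apol7a without those arrays or KO replicate 2 (up to 0.108).

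Of 13 thyroid hormone genes measured, 3 fell and 0 rose, Thrsp among them, and the list's mean signal was 7.20 to 7.31 in WT and 6.77 to 6.95 in KO. The list's median difference was -0.15 and 5 of the 13 lay above 0, so the large falls of Dio1 and Thrsp weigh on that mean. Dio1, which activates thyroxine, was 8.87, 7.06, 8.09 and 7.85 in WT and 7.09, 6.13, 5.54 and 6.04 in KO, and fell by 1.77 (adjusted p = 0.0117). WT replicate 2 overlapped the KO arrays. Rxra, the shared partner of nuclear receptors, was 9.57 to 9.72 in WT and 9.06 to 9.23 in KO (1.39-fold lower, adjusted p = 0.0042). Thrsp lost its call without WT replicate 2, 3 or 4 or KO replicate 1 or 4 (adjusted p up to 0.068).

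Bile acid genes moved both ways. Of 31 measured, 2 rose and 3 fell. Baat, which joins bile acids to taurine or glycine, was 6.65, 6.17, 6.01 and 6.03 in WT and 8.50, 8.41, 8.69 and 8.53 in KO. The rise was 4.97-fold (log2 2.31, SE 0.17, adjusted p = 3.89e-06). Nr5a2, which encodes LRH-1, an activator of bile acid synthesis genes, was 8.78, 8.58, 8.64 and 8.42 in WT and 9.47, 9.15, 9.36 and 9.31 in KO (1.64-fold). Nr0b2, which encodes its repressor SHP, read 7.55 to 7.99 in WT and 6.66 to 7.15 in KO (1.75-fold lower, adjusted p = 0.0193). Cyp7a1, the rate-limiting enzyme of bile acid synthesis, differed by 0.17 (adjusted p = 0.929), and the export pump gene Abcb11 by 0.00. The count of falls was 0 without WT replicate 3 or 4 or KO replicate 4 and 1 without WT replicate 2. Nr0b2 then reached an adjusted p of 0.0734, Scp2 (log2 -0.50) 0.109 and Abcg5 (-0.99) 0.129.

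Secreted and lipase genes held some of the largest changes. Of 20 carboxylesterases and related lipases, 3 rose and 3 fell. Ces3a and Ces3b are related carboxylesterases. Ces3a was 6.67, 7.45, 9.22 and 8.52 in WT and 11.80, 11.61, 12.03 and 11.11 in KO. The WT arrays were widely spread, and all KO arrays lay above them. Ces3b was 2.27, 2.39, 2.92 and 2.65 in WT and 4.06, 4.01, 3.87 and 3.63 in KO. These are low signals not shown to be above background, so no fold is given, and the log2 difference was 1.33. Near-identical copies in this family can share probe signal, so the values of single members are uncertain. Mgll, which degrades monoglycerides, fell 1.93-fold. Of 25 serpins and related inhibitors, 3 rose and 3 fell. Serpina12, which encodes the adipokine vaspin, was 3.34, 3.09, 3.25 and 3.92 in WT and 6.43, 6.94, 6.55 and 6.17 in KO. Serpina10 and Serpinb9 rose 1.64-fold and 1.63-fold. Mug1, a murinoglobulin, was 10.57, 9.30, 8.66 and 7.89 in WT and 7.24, 6.13, 6.85 and 5.56 in KO. The count of falls was 1 without WT replicate 3 or KO replicate 1, where Mug2 (log2 -1.97) and Serpina5 (-0.70) lost their calls (adjusted p up to 0.125 and 0.0594). Among the esterases, Ces1f fell by 1.16, and Ces2g (log2 1.00) and Ces1d (-0.74) reached an adjusted p of 0.0769 and 0.0876 with an array left out, Ces2g without WT replicate 2 or KO replicate 1 or 3 and Ces1d without WT replicate 2 or 3 or KO replicate 1 or 4.

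Plasma protein lists gave calls in both directions, beside 2.17% of all genes that rose and 1.14% that fell. Of 29 acute phase genes, 2 fell and 1 rose. Saa3, a serum amyloid A, was 5.83, 4.48, 5.28 and 4.86 in WT and 3.48, 4.03, 3.48 and 3.38 in KO (2.86-fold lower, adjusted p = 0.00195), and Saa4 fell by 0.76 on the log2 scale. WT replicate 1 had a mean acute phase signal of 10.59 against 9.62 to 9.97 on the other WT arrays. Of 26 genes in the complement list, Mbl2, the mannose-binding lectin, fell 1.80-fold and C4a fell 1.77-fold. Olfr48, an olfactory receptor gene counted in that list, did not pass. Of 30 coagulation genes, Plat, the tissue plasminogen activator, rose 1.76-fold. C4a lost its call without KO replicate 1, 3 or 4 (adjusted p up to 0.0717).

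Regulators of liver genes gave single calls. Of 33 hepatocyte transcription factors, Nr5a2 and Zhx2 rose, and Esr1 and Nr0b2 fell. Zhx2, a repressor of fetal liver genes, was 6.15, 6.01, 6.33 and 6.04 in WT and 6.88, 6.95, 6.66 and 6.81 in KO (1.61-fold, adjusted p = 0.00206). Esr1, the oestrogen receptor, fell by 0.85 and reached an adjusted p of 0.0632 without WT replicate 4. Of 20 sterol synthesis genes, Ebp fell by 0.68, and 3 fell without WT replicate 1. Of 25 growth hormone and IGF genes, Ghr, the growth hormone receptor, fell by 0.75 and its feedback inhibitor Cish rose by 0.77. Both lost their calls without WT replicate 2, 3 or 4 or KO replicate 1, 2 or 4 (adjusted p up to 0.110 and 0.129). Of 29 genes of metal handling, Hjv and Tfr2, which set hepcidin levels, fell by 0.51 and 0.33, and the metalloreductase Steap2 rose by 0.62. Hjv lost its call without WT replicate 2 or 3 or KO replicate 1 or 3, Tfr2 without any array but KO replicate 2 and Steap2 without WT replicate 2 or KO replicate 4 (adjusted p up to 0.0831, 0.142 and 0.0583). None of 20 clock genes passed in limma's test, and 3 had an unadjusted p under 0.05.

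**Figure D3:**
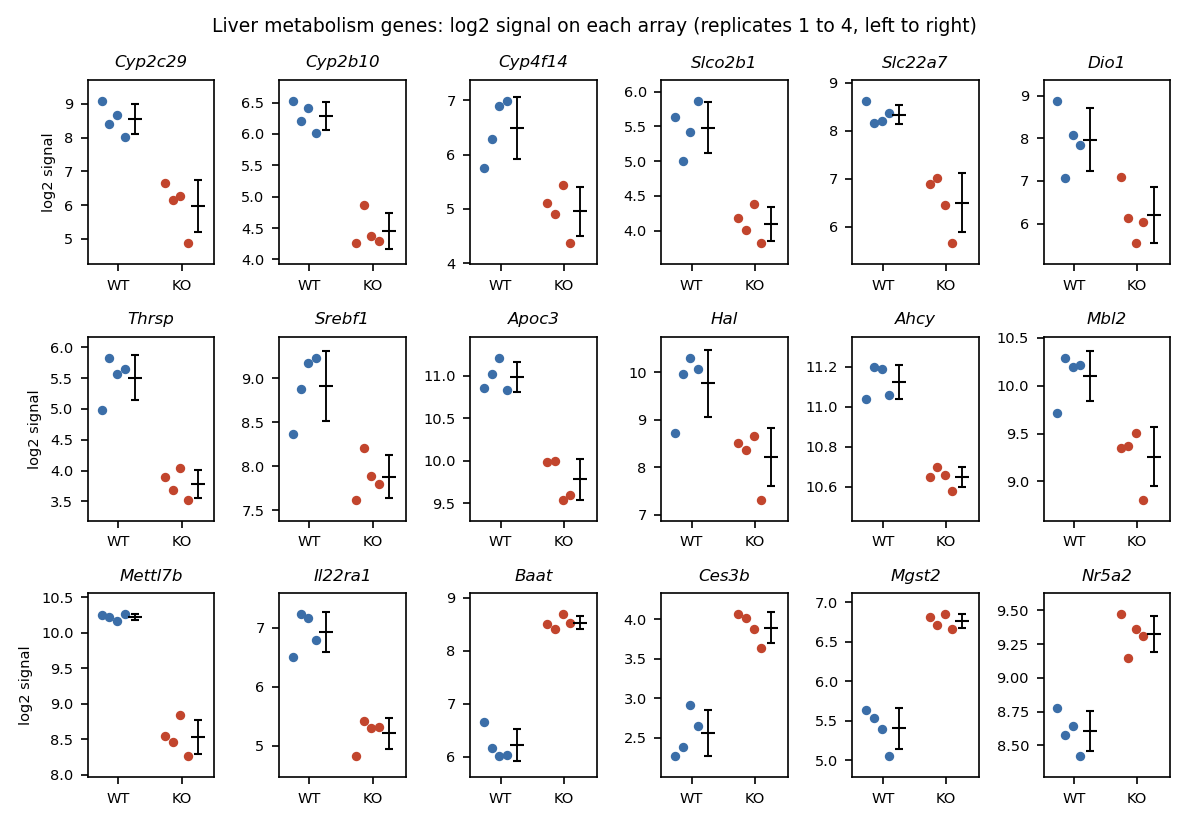
Log2 signal (y axis) of 18 liver metabolism and plasma protein genes on each of the 4 WT (blue) and 4 KO (red) arrays, replicates 1 to 4 from left to right within a group. Black bars are the mean and SD of 4 arrays, and each panel has its own y axis. Il22ra1, an interleukin receptor chain, is shown with them. Baat, Ces3b, Mgst2 and Nr5a2 are higher in KO, the other 14 are lower, and only Dio1 overlaps between the groups.

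Cell type markers other than those of cholangiocytes gave few calls. The mean signal of 23 hepatocyte markers was 12.04 to 12.16 in WT and 11.90 to 12.12 in KO, with Alb at 13.42 and 13.40, and 1 of the 23, Asgr1, fell (log2 -0.41). None of 25 markers of sinusoidal and vascular endothelium passed in limma's test, and 3 had an unadjusted p under 0.05. Their mean signal lay at 8.18 to 8.25 in WT and 8.05 to 8.15 in KO. Of 22 stellate cell and myofibroblast markers 0 passed in limma's test and 7 had an unadjusted p under 0.05, with a median of 0.17. Col1a1 and Acta2, made by activated stellate cells, differed by 0.40 and 0.32 (adjusted p = 0.247 and 0.789). Of 23 Kupffer cell and macrophage markers, Cd9 alone rose (1.89-fold), and Clec4f, which is specific to Kupffer cells, differed by -0.11. Asgr1 lost its call without any array but WT replicate 1 and KO replicate 2 (adjusted p up to 0.139), and Cd9 without WT replicate 3 or KO replicate 3 or 4 (up to 0.0663).

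Leukocyte lists held 17 monocyte and dendritic cell, 20 neutrophil, 16 eosinophil and mast cell, 22 T and NK cell and 20 B cell markers. They gave 3 rises and 1 fall in all, beside 2.17% of all genes that rose and 1.14% that fell. These counts are not read as a change of leukocytes. Siglecf, a lectin used to stain eosinophils, was 5.21, 4.83, 5.47 and 5.25 in WT and 8.69, 8.04, 8.53 and 8.63 in KO (9.76-fold). The other 15 eosinophil, mast cell and basophil markers did not pass. Epx and Prg2, which encode eosinophil granule proteins, differed by -0.83 and -0.85 (adjusted p = 0.0523 and 0.202), and the eotaxin receptor gene Ccr3 by -0.15. Siglech, of plasmacytoid dendritic cells, rose 1.83-fold, and Klrd1, of NK cells, 1.90-fold. Sdc1, a plasma cell marker that hepatocytes also express, fell 1.69-fold (adjusted p = 0.00125), while Jchain, made by plasma cells, was near 2.82 in WT and 2.60 in KO. None of 20 neutrophil and myeloid precursor markers passed in limma's test (1 under an unadjusted p of 0.05). Their median was -0.39, and it was -0.06 without WT replicate 1. Siglech lost its call without WT replicate 4 or KO replicate 1 (adjusted p up to 0.0695), and Klrd1 without any array but WT replicate 1 and KO replicate 2 (up to 0.143).

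Markers of blood formation did not pass, and nearly all lay on the lower side. The liver still makes blood cells at this age. All 24 erythroid markers lay below 0, with a median of -0.42 that ran from -0.74 to -0.18 as each array was left out, and all 14 megakaryocyte and platelet markers did too, with a median of -0.38. At an unadjusted p under 0.05 there were 1 and 0 of them in limma's test, and 2 of 18 blood stem and progenitor cell markers, none of which passed. Mean erythroid signal was 6.91 to 7.78 in WT, and it was 6.20 on KO replicates 1 and 2, 6.97 on KO replicate 3 and 7.49 on KO replicate 4, so the groups overlapped. Alas2, the haem synthesis enzyme of red cells, came nearest (log2 -0.59, adjusted p = 0.259). Of 17 markers of mesothelium, pancreas, stomach and muscle, Cela1, an elastase, fell by 0.59 (adjusted p = 0.00242).

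**Figure D4:**
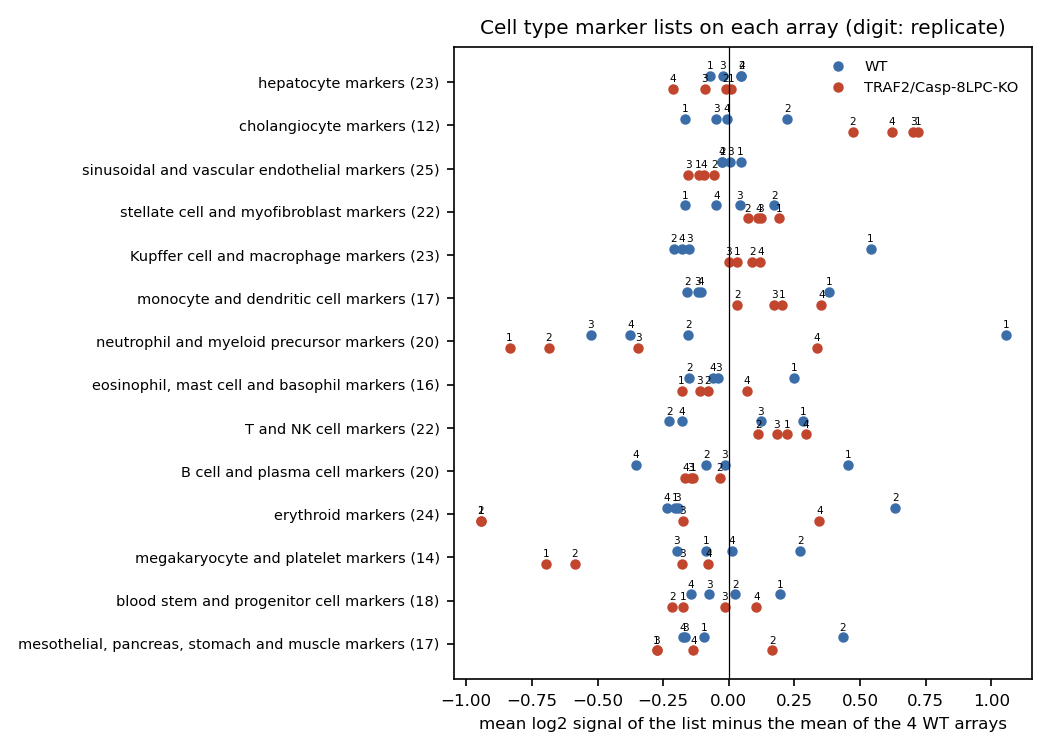
Mean log2 signal of 14 marker lists on each array, minus the mean of the 4 WT arrays (x axis). Blue points are WT and red points KO arrays, digits are replicate numbers and the number of markers is given in parentheses. The cholangiocyte list is the one in which all KO arrays lie above all WT arrays, the endothelial list lies lower on all KO arrays, and WT replicate 1 is far to the right in the neutrophil and Kupffer cell lists.

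**Figure D5:**
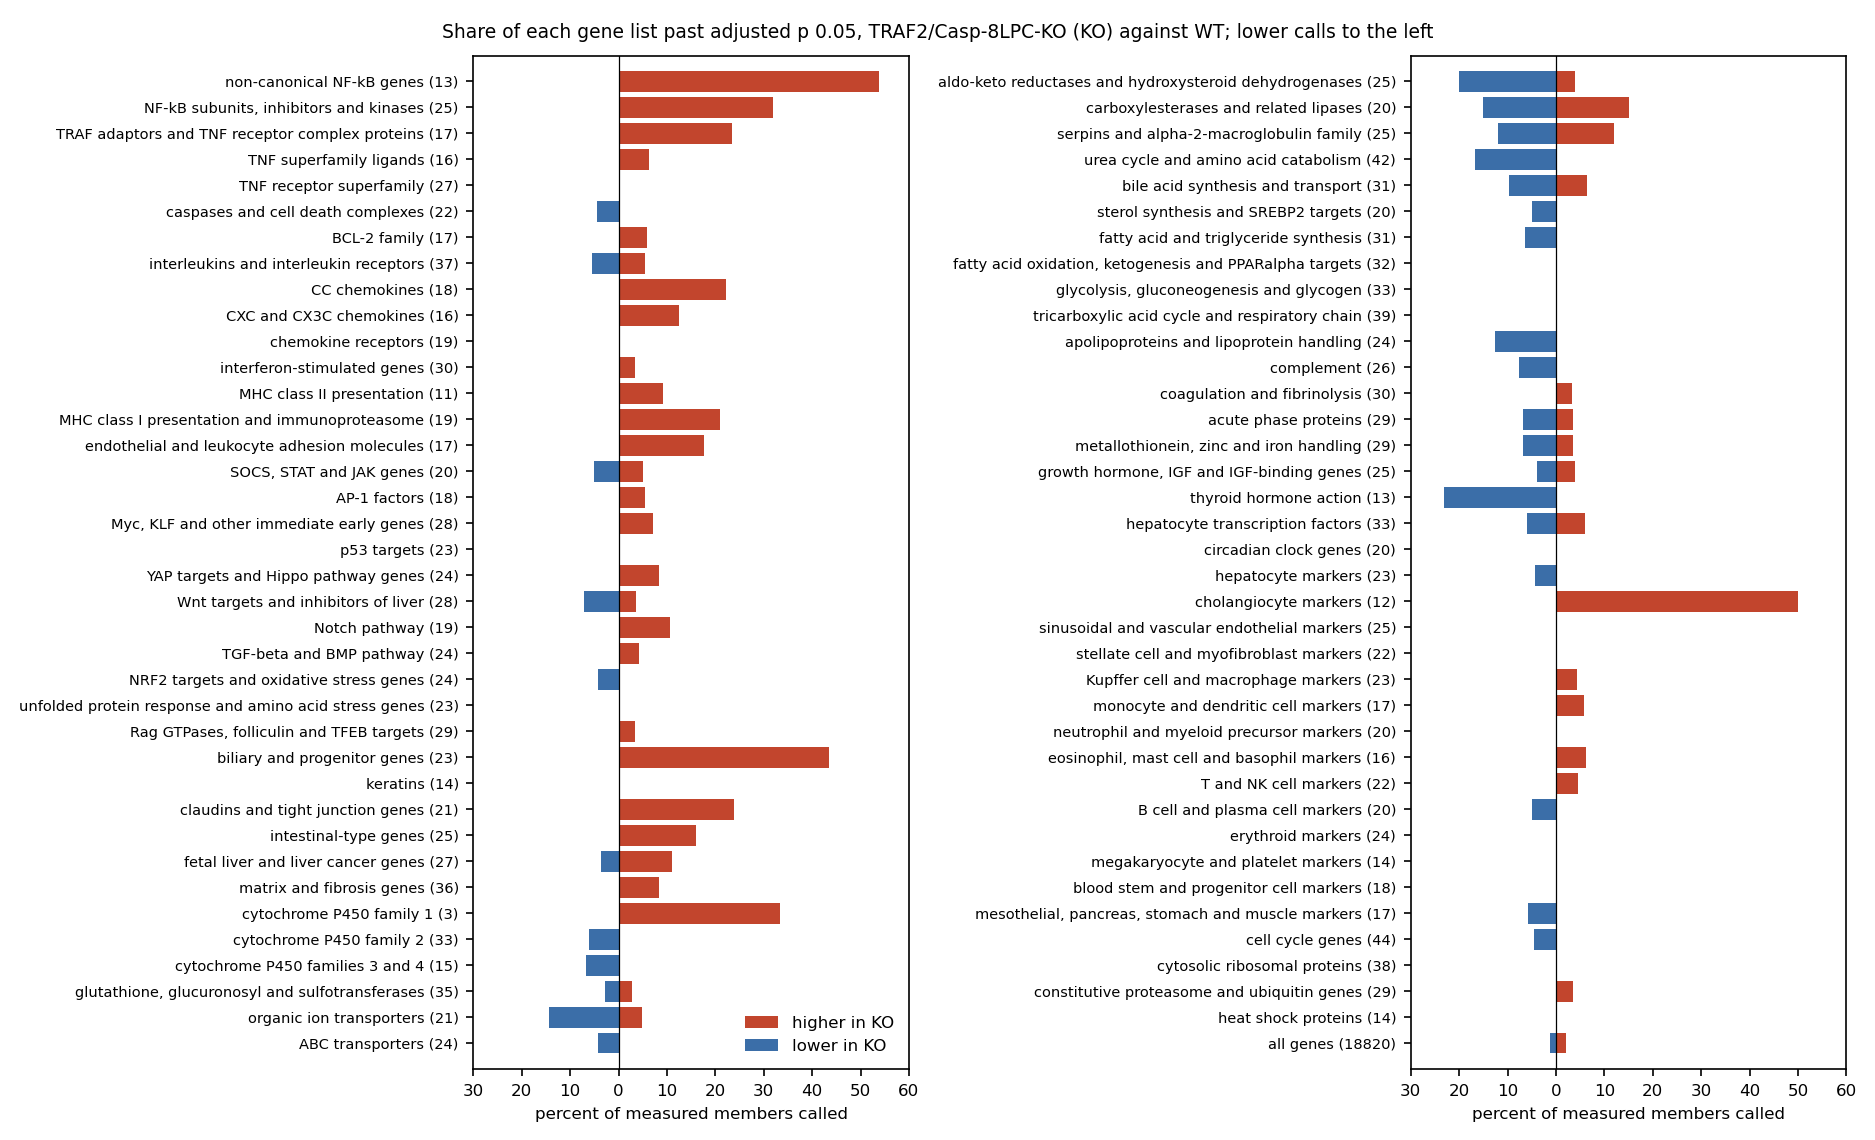
Percent of the measured members of 75 gene lists that rose (red, to the right) or fell (blue, to the left) past an adjusted p of 0.05, with the number measured in parentheses and all 18820 genes in the last row. The lists with the highest shares of rises are the non-canonical NF-κB genes (7 of 13), cholangiocyte markers (6 of 12) and the biliary and progenitor genes that contain them (10 of 23), beside 2.17% of all genes. Earlier results of these data were known when the lists were written, so this order describes and tests nothing.

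Outside the lists, the largest rises were in the genes that follow. Arc, a neuronal immediate early gene, was 4.02, 3.68, 3.74 and 3.58 in WT and 6.03, 5.87, 5.86 and 6.13 in KO (4.65-fold, adjusted p = 5.85e-07). Cacna1a, the pore of P/Q-type calcium channels, was 4.48, 4.34, 4.29 and 4.36 in WT and 6.05, 6.03, 5.98 and 5.97 in KO (3.12-fold), and its relative Cacna1b rose 3.44-fold. Adgrg2, an adhesion G protein-coupled receptor, was 5.41, 5.07, 5.58 and 5.82 in WT and 7.74, 7.79, 7.65 and 7.66 in KO (4.73-fold). Genes outside the lists were named only where the groups did not overlap, so the separation of these 4 genes follows from that choice.

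Scube3, a secreted protein with EGF domains, was 4.13, 4.15, 4.14 and 4.05 in WT and 6.34, 5.72, 6.12 and 6.50 in KO (4.14-fold). Itgb8, an integrin chain that activates TGF-β, rose 3.42-fold and the collagen receptor chain Itga2 rose 2.76-fold. Dsg1c, a desmosome cadherin, rose 3.38-fold from a WT mean of 3.24. Naip2, a sensor of the NLRC4 inflammasome, was 7.19, 6.16, 6.19 and 6.45 in WT and 8.08, 7.89, 7.88 and 8.04 in KO (2.78-fold, adjusted p = 0.000196). Rsl1, a KRAB zinc finger repressor of sex-limited liver genes, rose 3.28-fold. Gask1a, D17H6S56E-5, Rtl4, Tmem45a, Fyb2, Sectm1b, Mab21l3 and Elapor1 rose by 2.69 to 3.69-fold. The WT means of Sectm1b, Mab21l3 and Tmem45a were low (3.30, 3.55 and 3.82), so their folds may include background. Rptn read 2.24 in WT and 3.67 in KO on average (log2 1.43). These are low signals not shown to be above background, so no fold is given for Rptn. Dhrs9, a retinol dehydrogenase, rose 3.17-fold, with an adjusted p of up to 0.0683 once WT replicate 3 or 4 or KO replicate 1 or 4 was left out.

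The largest falls outside the lists spanned enzymes, carriers and secreted proteins. Mettl7b, a methyltransferase of lipid droplets and the endoplasmic reticulum, was 10.25, 10.22, 10.16 and 10.26 in WT and 8.55, 8.46, 8.84 and 8.26 in KO (3.24-fold lower, adjusted p = 8.11e-07). Prg4, which encodes lubricin, was 9.10, 9.13, 8.95 and 9.39 in WT and 7.67, 7.36, 7.49 and 6.78 in KO (3.53-fold lower). Nrg4, a secreted ligand of the receptor ErbB4, was 6.10, 6.54, 5.94 and 6.59 in WT and 4.56, 4.30, 5.05 and 4.83 in KO (3.05-fold lower). Gabbr2, a subunit of the GABA-B receptor, fell 3.14-fold, with KO replicate 4 at 6.20 and the other KO arrays at 7.24 to 7.45. The carriers Slc16a5 and Slc17a1 fell 3.09-fold and 2.08-fold.

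Leap2, a hepatic peptide that opposes ghrelin, was 6.63, 7.13, 7.02 and 7.22 in WT and 5.80, 6.13, 6.38 and 5.93 in KO (1.92-fold lower, adjusted p = 0.0093). Rgn, a gluconolactonase of vitamin C synthesis, fell 2.06-fold from a WT mean of 11.39. Arhgef37, Sulf2, Gchfr, Mfsd4b1 and Cacng1 fell by 1.92 to 2.41-fold. Pnkd fell by 1.03 on the probe set that stood for it, while its second probe set differed by -0.11. Clec2h lost its call without WT replicate 2, 3 or 4 or KO replicate 4 (adjusted p up to 0.0691), Calml4 without WT replicate 3 or KO replicate 1 or 3 (up to 0.0607) and Etnppl without WT replicate 3 or 4 or KO replicate 4 (up to 0.0587). Acss3 lost it without any array but KO replicates 1 and 3 (up to 0.0972), Lin7a without WT replicate 4 (0.0522) and Fam25c without WT replicate 3 (0.0521). These 6 fell by 0.95 to 1.86 on the log2 scale.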

How the data were processed

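RNA of whole livers was hybridised to Affymetrix arrays, 1 per mouse. Per the labels' protocols, 100 ng of RNA entered each reaction. The deposited table holds log2 signals that the authors made with RMA, per the submitters' processing notes. Its version and the genome build behind the probe sets: not given in the sources used here. Values ran from 0.89 to 13.65, which sets the log base, and array medians from 4.9 to 5.05. Precision is limited by the number of arrays. No detection call was used, so folds against low signals may include background, and signals of different genes are not compared.

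The values were used unfiltered. A single limma 3.58.1 model (R 4.3.3) held the 16 arrays of all 4 genotypes, moderated by eBayes with no trend, and KO minus WT was its contrast, tested two-sided. Benjamini-Hochberg adjustment ran over the 35556 probe sets, and calls needed an adjusted p under 0.05. Of the probe sets, 21218 carry 1 gene symbol, 1881 several and 12457 none. The brightest probe set over all arrays with 1 symbol stood for its gene. The test was checked on simulated data for this comparison (35556 probe sets). It found 48.5% of true log2 shifts of 0.5, 84.5% at a shift of 1 and 94.5% at 2, with 5.01% false among the calls. The simulated noise was normal, independent between probe sets and equal on all arrays. It held neither outlying arrays nor correlated genes, so 5.01% is not an error rate measured for the real arrays.

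The comparison and the 76 gene lists (1581 distinct genes measured) were chosen with earlier results of these data known. Named genes were Traf2, Casp8, list members past the threshold or the nearest to it, defining markers, and outside the lists the 20 largest rises and 20 largest falls among called genes whose groups did not overlap. Predicted, clone-named, small RNA, antigen receptor, olfactory and vomeronasal genes were left out. Promoter and miRNA sequences are from RefSeq (GRCm38.p6). Nothing ties the arrays to litters. Alternatives are given in the closing section. Plots used Python 3.11.15 with matplotlib 3.10.9.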

Additional observations from a re-analysis of the deposited data

Results flagged for a closer look

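In each group of 4 arrays, the gap between the outermost array and its nearest neighbour was divided by the whole range, and a share above Dixon's 95% critical value was listed. Of 380 groups checked, 27 passed, where chance gives about 1 in 20, or 19. The genes are given by array, each with its direction and that share. WT replicate 1 stood apart for Arhgef37 (high, 0.89), Clec2h (low, 0.936), Map3k14 (high, 0.833), Nfkbia (high, 0.868), Notch2 (low, 0.898) and Ubd (high, 0.85). WT replicate 3 stood apart for D17H6S56E-5 (low, 0.905). KO replicate 1 stood apart for Arhgef37 (high, 0.864) and Tff3 (low, 0.853). KO replicate 2 stood apart for Marveld2 (low, 0.886), Saa3 (high, 0.842) and Slc22a26 (low, 0.925). KO replicate 3 stood apart for Nfkb2 (low, 0.884), Notch2 (low, 0.926), Rsl1 (high, 0.837), Saa4 (high, 0.876) and Slco2a1 (high, 0.834). KO replicate 4 stood apart for Abcg5 (low, 0.967), Agxt (low, 0.843), Gabbr2 (low, 0.834), Lin7a (low, 0.884), Serpina5 (high, 0.937) and Wif1 (low, 0.976).

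Of the marker lists, 4 were listed. The erythroid mean of WT replicate 2 was 7.78 against 6.91 to 6.95 on the other WT arrays (share 0.957). WT replicate 1 was high in Kupffer cell and macrophage markers (9.01 against 8.26 to 8.32, share 0.924) and in monocyte and dendritic cell markers (6.25 against 5.71 to 5.76, share 0.912). The list of mesothelial, pancreas, stomach and muscle markers was high on WT replicate 2 (5.03 against 4.42 to 4.50, share 0.879).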

How the results depend on the processing

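Of 176 named calls, 114 held with each array left out in turn and 62 were lost with 1 or more left out. None of these 176 differences changed sign under the alternatives run (173 were tested without the dimmest probe sets). With each array left out, the count of probe sets past the threshold ran from 420 to 902, that of rises from 291 to 584 and that of falls from 127 to 364. In a model of the 2 groups alone the counts were 458, 320 and 138, and 122 of the 176 named calls held. That model also ended some calls that had held with each array left out. These were Akr1c18, Ces1f, Dio1, Elapor1, Hsd17b6, Lrp1, Maff, Mbl2, Mug1, Psmb10, Rptn, Slc13a3 and Srebf1. With array weights the counts were 1594, 926 and 668. With a minimum of 2-fold they were 186, 135 and 51. Without WT replicate 1 and KO replicate 4 together, an alternative chosen after seeing the data, they were 503, 333 and 170. Ccn1, Cdh1, Dio1, Lrp1, Mug1, Pkhd1 and Saa4, whose calls held with each single array left out, lost them without that pair. An intensity trend with robust moderation, a filter that drops the dimmest 1 in 3 probe sets, quantile normalisation, median centring, 1 probe set or the mean of all probe sets per gene, and the plate row as a random block (correlation 0.0133) kept each count within 1.5 times. Replicate numbers are not stated to pair the mice, and same-numbered arrays' deviations correlated at -0.102 to 0.0468. With the replicate block 666 probe sets passed (425 rises, 241 falls), and 162 of 176 named calls held. The adjusted p assumes that the 4 arrays of a group show the spread between mice.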

Other observations

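The groups in this part were picked after the values had been seen, so their counts describe and test nothing. Genes of intraflagellar transport, the traffic that builds cilia, were higher in KO in part. Of 23 measured, 5 rose and 0 fell, with a median of 0.27. Ttc21b, a subunit of the complex that moves cargo back from the tip, was 4.48, 3.94, 4.42 and 4.37 in WT and 5.15, 5.16, 5.58 and 5.35 in KO (2.01-fold, adjusted p = 0.00125). Ift57, Ift74, Ift81 and Ift122 rose by 0.50 to 0.56, and each lost its call with 4 or more of the 8 arrays left out in turn (adjusted p up to 0.135). Several genes of cell junctions and of the cortex rose as well. Lsr, a protein of junctions where 3 cells meet, was 8.29, 8.06, 8.17 and 8.04 in WT and 9.09, 8.96, 8.98 and 8.92 in KO (1.80-fold, adjusted p = 0.000129). Cgnl1 rose 1.76-fold and the polarity gene Pard6b 1.62-fold.

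Of 13 genes of sulfide and cysteine oxidation, 4 fell and 1 rose, with a median of -0.46. Of the 4, 1 kept its call with each array left out, since Sqor, Tst and Suox each lost it without any 1 of 5 or 6 arrays, WT replicates 2, 3 and 4 and KO replicate 4 among them (adjusted p up to 0.113). Mpst, a sulfurtransferase, was 7.46, 7.79, 7.73 and 7.80 in WT and 6.84, 6.67, 6.85 and 6.88 in KO (1.84-fold lower, adjusted p = 0.000588), and Cdo1, which opens cysteine breakdown, rose 1.39-fold but lost its call without WT replicate 3 or 4 or KO replicate 1 or 3 (adjusted p up to 0.081). Of 34 peroxisome genes, 7 fell and 0 rose, and 3 of the 7 kept their calls with each array left out. Lonp2, Agxt, Scp2 and Grhpr each lost theirs without any 1 of 5 to 7 arrays, WT replicates 2, 3 and 4 and KO replicate 4 among them (adjusted p up to 0.129). Hacl1, an enzyme of fatty acid alpha-oxidation, fell 1.77-fold and the assembly factor Pex16 1.73-fold. The receptor genes of interferon-γ, Ifngr1 and Ifngr2, rose 1.65-fold and 1.56-fold, while the median of the interferon-stimulated genes was -0.11.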
